A study of Mus musculus with 4 samples.

Results

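Pancreatic acinar enzymes and their regulators were examined as 38 named genes on microarrays of mouse spinal cord and duodenum. The members are the digestive zymogens and enzymes of the acinar cell, the proteins of its secretory granules and endoplasmic reticulum, and the transcription factors that run its program. They were chosen by name, and their probes were found through the RefSeq accession that the scanner output gives for each probe. Of the 38 genes, 34 had at least 1 probe (40 probes in all), out of 32575 genes or identifiers on the array. Prss3, Try10, Ctrc and Amy2b had no probe matched by accession, so no signal is given for them. Prss3 and Amy2b do count in the promoter comparison below.

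The 4 groups, each measured on a single array, were wild-type (WT) spinal cord, IP6K2-KO spinal cord, WT duodenum and IP6K2-KO duodenum. All mice were males of 20 weeks. IP6K2-KO mice lack inositol hexakisphosphate kinase 2, which makes the inositol pyrophosphate IP7, and the WT mice were littermates. Both genotypes received a purified diet for 1 week and were then fasted for 48 h, and the study's methods describe perfusion with saline and a duodenal segment that began at the distal end of the stomach. The labels do not say how many mice went into an array or which layers of the duodenum were taken, and a part of the pancreas is not named in any label. For a separate RNA sequencing of duodenal muscularis externa, the study left out amylase and trypsinogen genes as contaminating mucosal digestive enzyme genes. Of the members, these were Amy1, Amy2a4, Amy2a5, Amy2b, Try4, Try5 and Try10. A single array per group leaves every difference without replicates, so nothing was tested. Each array carried 399 probes in 10 spots, and the technical SD given below was taken from them, which covers spots and not mice.

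Acinar cells make up most of the exocrine pancreas. They store digestive enzymes, many as inactive zymogens, in zymogen granules and release them into the duct, which empties into the duodenum. There enteropeptidase activates trypsinogen, and trypsin activates the other zymogens. PTF1A with RBPJL, and BHLHA15 (also called MIST1), drive acinar gene expression. The duodenum makes the hormones cholecystokinin and secretin, which stimulate pancreatic secretion.

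The promoters of members were compared with those of all genes, since the PTF1 complex binds an E-box and a second box in pancreatic promoters. RefSeq promoter sequences (build GRCm38.p6) were held for 33 of the 38 members, with 34 start sites. Over the 250 bases before the start, and on both strands, the E-box letters CACCTG were found in 19 of 34 member promoters (55.9%) against 17.2% of 32851 promoters of all genes. The letters TATAAA were found in 13 of 34 (38.2%) against 12.4% of all, and TTTCCC in 8 of 34 (23.5%) against 21.9%. The median GC content of the window was 47.8% for members and 52.4% for all promoters. A match describes the letters and not a bound site. The promoters of 4 members are printed below, 5′ to 3′ on the strand of the gene, to show the letters. They are a pair of enzyme genes (Cela3b, Prss2) and a pair of granule or secretory genes (Gp2, Klk1). The pairs differed in opposite directions in the duodenum under the first scaling described below. Under the second scaling Cela3b was at 0.00 and Prss2 at 0.24, so the directions were no longer opposite. Whether the letters go with the direction was not tested. Capitals mark these 3 motifs on either strand. The E-box on the reverse strand reads CAGGTG, and the second box there reads GGGAAA. The windows are chr4:137430521-137430770 on the minus strand (Cela3b), chr6:41521526-41521775 on the plus strand (Prss2), chr7:119459273-119459522 on the minus strand (Gp2) and chr7:44225110-44225359 on the plus strand (Klk1).
Cela3b: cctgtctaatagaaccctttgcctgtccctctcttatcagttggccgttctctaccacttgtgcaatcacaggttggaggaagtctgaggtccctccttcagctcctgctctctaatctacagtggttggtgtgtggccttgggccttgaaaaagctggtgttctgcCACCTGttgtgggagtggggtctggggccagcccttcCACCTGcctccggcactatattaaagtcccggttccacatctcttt
Prss2: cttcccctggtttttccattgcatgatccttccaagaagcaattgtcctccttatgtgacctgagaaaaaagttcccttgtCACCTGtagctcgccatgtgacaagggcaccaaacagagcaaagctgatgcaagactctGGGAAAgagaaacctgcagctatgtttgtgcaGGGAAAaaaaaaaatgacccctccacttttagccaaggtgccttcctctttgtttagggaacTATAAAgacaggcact
Gp2: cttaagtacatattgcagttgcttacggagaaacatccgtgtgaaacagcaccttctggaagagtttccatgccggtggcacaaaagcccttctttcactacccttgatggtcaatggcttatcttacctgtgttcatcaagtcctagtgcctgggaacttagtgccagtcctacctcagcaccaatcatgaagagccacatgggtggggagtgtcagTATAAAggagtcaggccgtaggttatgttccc
Klk1: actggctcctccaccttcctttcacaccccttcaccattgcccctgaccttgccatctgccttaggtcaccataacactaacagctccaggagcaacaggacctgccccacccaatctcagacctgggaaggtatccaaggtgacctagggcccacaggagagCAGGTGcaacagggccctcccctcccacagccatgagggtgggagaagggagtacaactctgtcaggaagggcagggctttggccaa
Cela3b held CACCTG at 83 and 46 bases before the start. Prss2 held all 3 motifs, with TATAAA at 16 bases before the start. Gp2 held TATAAA at 32 bases before the start and no CACCTG in this window, and Klk1 held the reverse-strand E-box at 87 bases before the start.

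Several facts of the arrays bear on every value. The 75th percentile of the signal, on which each array was scaled, was 905 (WT) and 971 (IP6K2-KO) in the spinal cord and 68.0 (WT) and 323 (IP6K2-KO) in the duodenum. The share of the 39429 probes that passed the scanner flag for signal well above background ranged from 51.6% to 77.3%, and no spot was saturated. The duodenum arrays therefore differed 4.75-fold in the scaling factor, in the direction of IP6K2-KO, whereas spiked-in control RNA went the other way (0.590-fold). The probe of Ip6k2 read 452, 1320, 139 and 572 in the same order of arrays. It was higher on the spinal cord array labelled IP6K2-KO. In the duodenum its unscaled signal was also higher on the array labelled IP6K2-KO, beside the 4.75-fold difference in scaling. Genotypes are therefore given as labelled. The files do not place this probe relative to the deleted part of the gene. The 10 markers of spinal cord neurons and glia were well above background on both spinal cord arrays and the 10 enterocyte markers on both duodenum arrays.

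All 34 measured members were well above background on both duodenum arrays, and all 34 were higher there than in spinal cord. On the spinal cord arrays 18 (WT) and 20 (IP6K2-KO) were well above background. The 40 member probes took 8.59% of the summed signal of all probes on the WT duodenum array and 5.90% on the IP6K2-KO duodenum array, and 0.00461% and 0.00427% on the spinal cord arrays. Of the 50 genes with the brightest probes, 15 were members on the WT and 17 on the IP6K2-KO duodenum array, and none on the spinal cord arrays. Cela3b, a pancreatic elastase, had the brightest probe on both duodenum arrays. The order of probe signals is not an order of transcript levels, because probes differ in how well they bind. In bulk RNA, fewer cells of a type and less RNA per cell cannot be told apart.

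**Figure D1:**
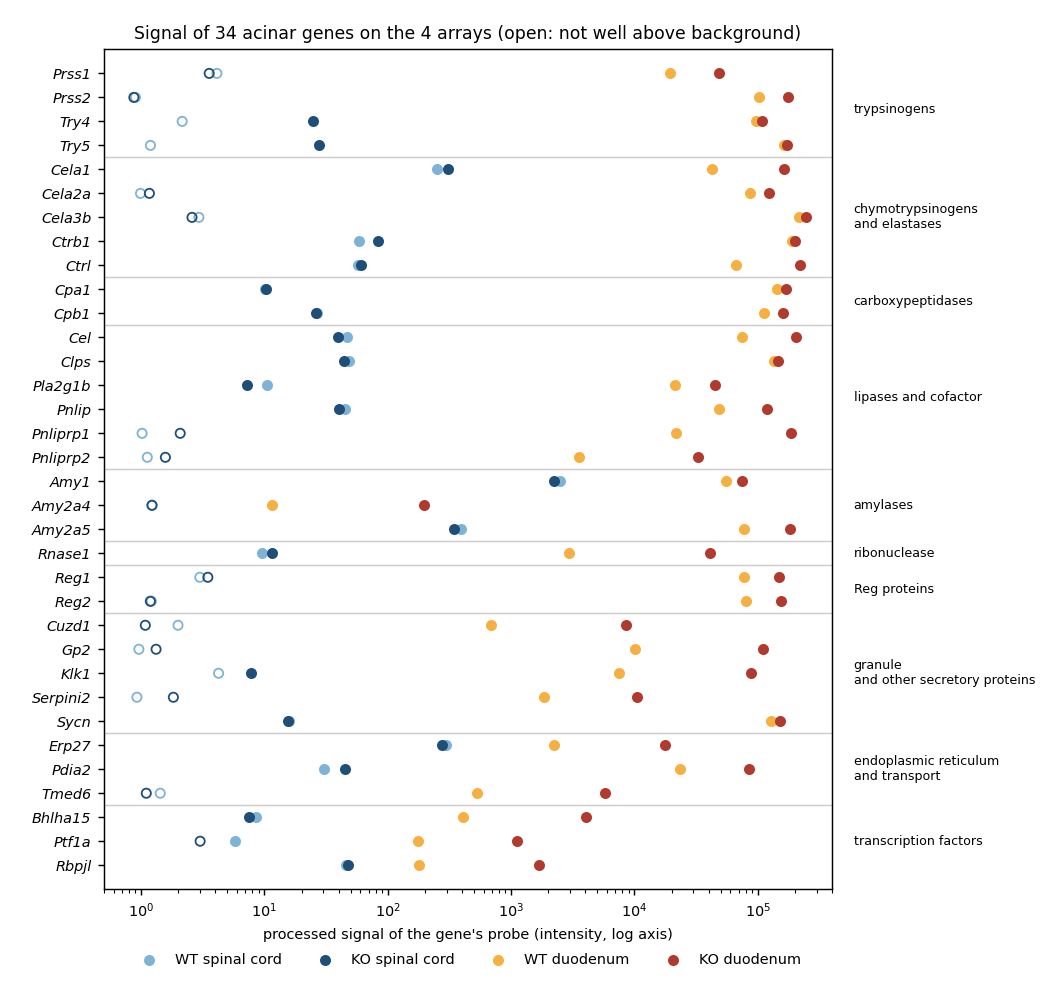
Processed signal (intensity, log axis) of the probe used for each of the 34 acinar genes on the 4 arrays, 1 point per array, grouped by role; open points were not well above background. All duodenum points are filled, and 18 and 20 of the spinal cord points are. Apart from Amy2a4, whose duodenum signals were 11.4 and 195, each gene's duodenum points lie above 100.

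The comparison of tissues asked where the acinar genes are detected. In WT tissue the log2 difference, duodenum minus spinal cord, had a median of 14.41 over the members, and ranged from at least 5.09 (Amy2a4) to at least 19.29 (Cela3b). A difference is a lower bound where the spinal cord probe was not well above background, which held for 16 of the 34 WT and 14 of the 34 IP6K2-KO comparisons. In IP6K2-KO tissue the median was 13.56, from 6.63 (Amy1) to at least 17.39 (Cela3b). All 34 members were at least 2-fold higher in the duodenum in both genotypes, against 30.2% of the genes well above background on at least 1 of the arrays in WT and 30.3% in IP6K2-KO. None was lower, against 23.1% and 25.4% of all genes.

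In the duodenum the genotypes could be set side by side on all 34 members, and the result depended on the scaling, so both scalings are given. The unscaled signal was higher on the IP6K2-KO array for all 34 members, by 1.05-fold (Try5) to 17.1-fold (Amy2a4). That array was brighter as a whole, with a 75th percentile 4.75-fold higher. Other genes well above background on both arrays had median ratios from 1.81-fold (mean signal of at least 50000) to 4.65-fold (below 1000). The share of all genes with a higher unscaled signal was not counted. With each array scaled on its 75th percentile, 7 members were at least 2-fold higher on the IP6K2-KO array and 15 at least 2-fold lower, with a median log2 difference of −0.87. Of the 21428 genes well above background on at least 1 of the arrays, 7.20% were 2-fold higher and 11.9% lower, and the median of those with a difference was −0.05. After quantile normalization of the 4 arrays, 10 members were at least 2-fold higher and none lower, with a median of 0.47. Then 7.11% of all genes were higher and 8.79% lower. The 7 genes that were 2-fold higher under the first scaling were also 2-fold higher under the second. Of the members, 10 changed sign between the scalings, 13 were above 0 under both, 10 were below 0 under both and Cela3b went to 0. That value of Cela3b is fixed by the method, which gives equal ranks equal values. The technical SD of these differences was between 0.068 and 0.14. The probes in 10 spots read at most 61587 in the duodenum, so for brighter members this SD comes from dimmer probes.

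**Figure D2:**
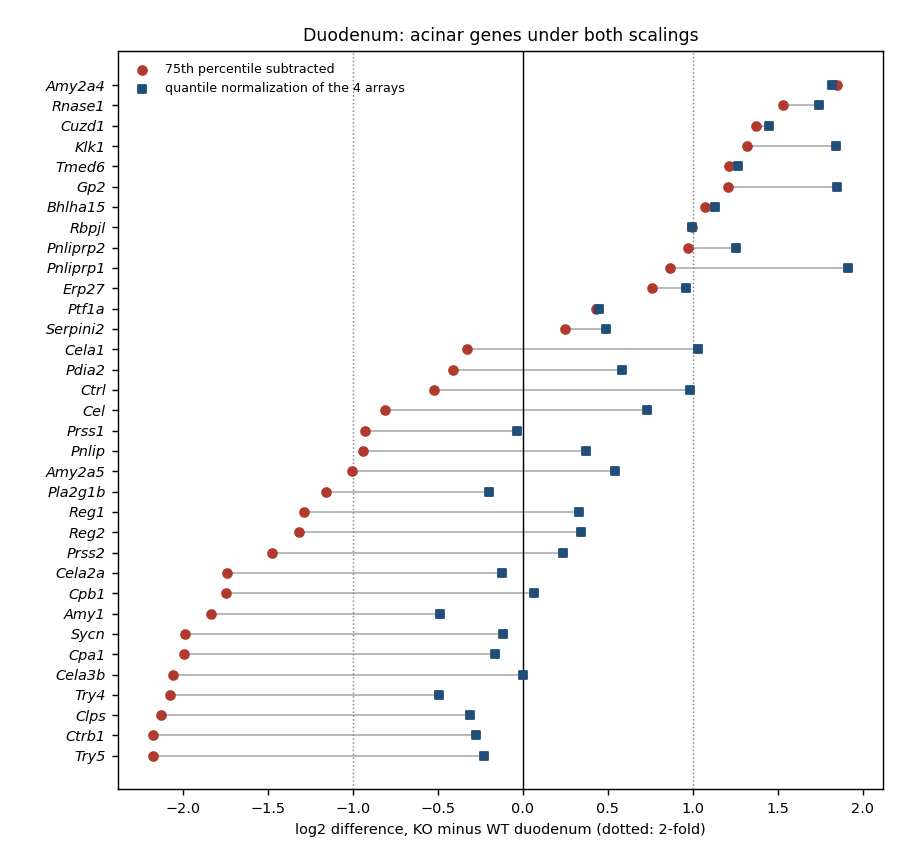
Log2 difference between the duodenum arrays, IP6K2-KO minus WT, for each of the 34 acinar genes after subtraction of the 75th percentile (circles) and after quantile normalization of the 4 arrays (squares); dotted lines mark 2-fold. The genes from Amy2a4 down to Serpini2 lie above 0 under both scalings, and 10 of the others cross 0.

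The difference went with the brightness of the probe. Over the 34 members, the rank correlation between the mean log2 signal of the duodenum arrays and the log2 difference was −0.85. This is a description over genes that share both arrays. The 19 members with a mean signal of at least 50000 had a median difference of −1.74, beside −1.39 for the 101 other genes that bright, and their values under quantile normalization had a median of 0.07 beside 0.02. By their medians, the members below that limit stood further from other genes of their brightness. The 7 members between 10000 and 50000 had a median of 0.97 beside −0.65 for 672 other genes, the 5 between 1000 and 10000 had 1.07 beside −0.27 for 2769, and the 3 below 1000 had 1.00 beside −0.03 for 13234. Under quantile normalization these medians were 1.25, 1.13 and 1.00 for members, beside 0.04, 0.02 and 0.01. The method gives the arrays the same distribution, which by itself keeps the medians of other genes small at any brightness. The limits were chosen after the values were seen.

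**Figure D3:**
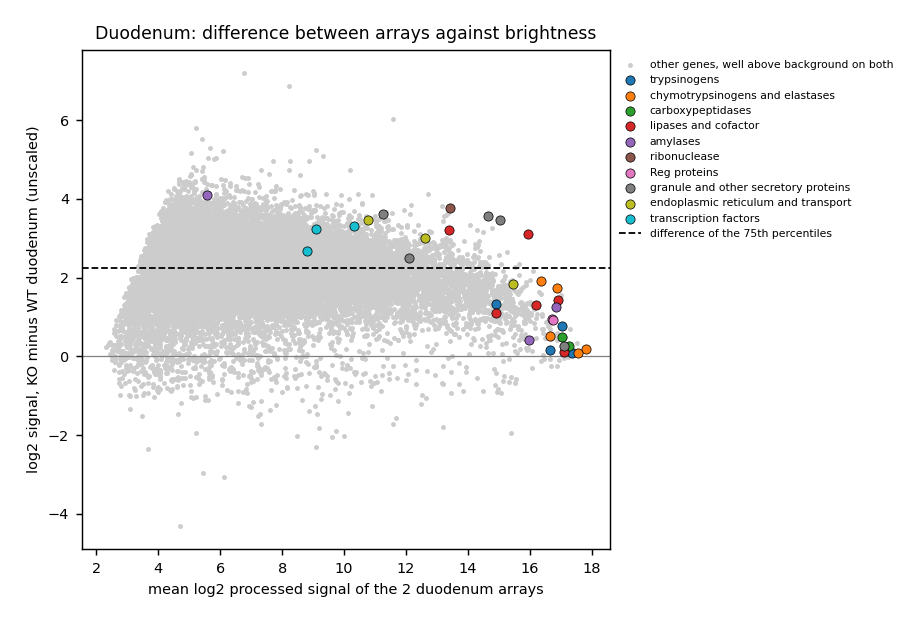
Log2 difference of unscaled signal, IP6K2-KO minus WT duodenum, against the mean log2 signal of the duodenum arrays for genes well above background on both (grey) and the 34 acinar genes (coloured by role); the dashed line is the log2 ratio of the 75th percentiles, 2.25. The 19 members with a mean signal of at least 50000 had a median ratio of 1.42-fold, from 1.05-fold (Try5) to 8.67-fold (Pnliprp1). The other genes that bright had a median of 1.81-fold, from 0.818-fold to 5.05-fold. Of all members, 13 lie above the dashed line.

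The trypsinogens, which become the protease trypsin, had bright probes on both duodenum arrays. Prss1 read 19612 on the WT and 48879 on the IP6K2-KO duodenum array. Prss2 read 102517 and 174970, and Try4 and Try5 read 97056 and 164558 on WT and 109206 and 172957 on IP6K2-KO. All 4 were lower on IP6K2-KO after 75th percentile scaling, by −0.93, −1.48, −2.08 and −2.17. After quantile normalization they were at −0.04, 0.24, −0.49 and −0.23, so that Prss2 turned its direction. A second Prss1 probe was brighter in the duodenum, with 48526 on WT and 87659 on IP6K2-KO, and gave −1.39 (−0.12 after quantile normalization). The probe used was chosen by its mean over the 4 arrays, spinal cord included. These genes are near-identical copies, and the files do not give probe sequences, so their signals may share RNA.

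The chymotrypsinogens and elastases cleave dietary protein after trypsin has activated them. Ctrb1, chymotrypsinogen B1, read 190024 on WT and 200070 on IP6K2-KO. Cela3b read 214744 and 244876, and Cela2a, another elastase, 86423 and 123014. These 3 were at least 2-fold lower after 75th percentile scaling (−2.17, −2.06 and −1.74) and at −0.27, 0.00 and −0.12 after quantile normalization. Cela1, elastase 1, read 42898 and 162106, and Ctrl, a chymotrypsin-like protease, 66465 and 219898. They differed from the first 3 by their larger increase in signal, 3.78-fold and 3.31-fold. Their differences were −0.33 and −0.52 after 75th percentile scaling and 1.03 and 0.98 after quantile normalization. The carboxypeptidases, which remove residues from the carboxyl end, followed the first 3. Cpa1 read 143366 and 170741, and Cpb1 112702 and 159417, with differences of −1.99 and −1.75, and −0.16 and 0.07 after quantile normalization.

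Lipases split dietary fat, and the 6 members went in different directions. Colipase (Clps), the cofactor of pancreatic lipase, read 135379 on WT and 146838 on IP6K2-KO, a difference of −2.13. Pancreatic lipase itself (Pnlip) read 48235 and 119242 (−0.94), the bile salt-activated lipase Cel 74642 and 202454 (−0.81), and the phospholipase Pla2g1b 21146 and 44998 (−1.16). The lipase-related proteins went the other way. Pnliprp1 read 21558 and 186849 and differed by 0.87, and Pnliprp2 read 3535 and 32913 and differed by 0.97. Quantile normalization put these 6, in the order named, at −0.31, 0.37, 0.73, −0.20, 1.91 and 1.25, so that Pnlip and Cel turned their direction. The place of Pnliprp1 in the order of gene signals went from 239 on WT to 8 on IP6K2-KO, and that of Clps from 9 to 23.

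Amylase digests starch. Amy1, the amylase of salivary gland and liver, read 55531 on WT and 74053 on IP6K2-KO duodenum, a difference of −1.83, and −0.49 after quantile normalization. Amy2a5, a pancreatic amylase, read 77398 and 182868. It differed by −1.01 and by 0.54 after quantile normalization, and its second probe by −2.24 and −0.49, so that the probes disagreed in direction after quantile normalization. Amy2a4, a further copy in the amylase cluster, had a dim probe, with 11.4 on WT and 195 on IP6K2-KO. Its difference of 1.85 was the highest of the members under 75th percentile scaling, but it was 0.16 under normexp background correction. Amylase copies are near-identical, so the same limit on probes holds. Of the salivary markers, the 3 other than Amy1 were not well above background on any array.

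Rnase1, the pancreatic ribonuclease, read 2970 on WT and 40741 on IP6K2-KO, with a difference of 1.53 (1.74 after quantile normalization). The Reg proteins are secreted lectins of the acinar cell. Reg1 read 77050 and 149856 and Reg2 read 80295 and 153004. Both were lower after 75th percentile scaling, by −1.29 and −1.32, and turned to 0.33 and 0.34 after quantile normalization.

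The granule and other secretory proteins were higher on IP6K2-KO under both scalings, with syncollin as the exception. Gp2, the major glycoprotein of the zymogen granule membrane, read 10074 on WT and 110404 on IP6K2-KO, a difference of 1.21 (1.85 after quantile normalization). Its second probe gave 2.21 (2.29). Tissue kallikrein (Klk1) read 7475 and 88683, a difference of 1.32 (1.84). Cuzd1, a protein of zymogen granules, read 691 and 8501, a difference of 1.37 (1.45). Serpini2, a serpin of the pancreas, read 1852 and 10449, a smaller difference of 0.25 (0.49). Syncollin (Sycn), which binds the granule membrane, read 127853 and 152845, a difference of −1.99 (−0.12).

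The proteins of the endoplasmic reticulum and transport fold and move the enzymes. Erp27, a protein disulfide isomerase family member of the endoplasmic reticulum, read 2208 on WT and 17774 on IP6K2-KO, a difference of 0.76 (0.96 after quantile normalization). Tmed6, of the p24 family of cargo proteins, read 525 and 5782, a difference of 1.22 (1.27). Pdia2, the pancreatic protein disulfide isomerase, read 23615 and 84273, a difference of −0.41 that turned to 0.58. The 3 transcription factors were all above 0 under both scalings. Bhlha15 read 407 and 4062 (1.07 and 1.13), Rbpjl 178 and 1686 (1.00 and 1.00), and Ptf1a 175 and 1122 (0.43 and 0.45).

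Of the 6 members with more than 1 probe, both probes of each gave the same sign in the duodenum under 75th percentile scaling, and those of 4 did after quantile normalization. The exceptions were Amy2a5 and Clps, whose probes then gave −0.31 and 0.32. The order of the 34 members was largely shared between the duodenum arrays, with a rank correlation of 0.84 between their log2 signals. In the order of all gene signals on an array, which no shift of a whole array changes, 23 members stood at a higher place on IP6K2-KO than on WT, 10 at a lower place and Cela3b at the same place. The matching share of all genes was not counted, so these counts are a description and not a result about the members. Gp2 went from place 499 to 53, Klk1 from 641 to 87 and Rnase1 from 1214 to 349, whereas Amy1 went from 59 to 121.

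Lists of related genes and of other cell types gave the following values on the same duodenum arrays. Of 20 further genes listed as acinar, 19 had a difference, 3 were at least 2-fold higher and 3 lower, with a median of 0.27. After quantile normalization the median was 0.31, with 3 higher and none lower. Not all are particular to acinar cells, as 15 were well above background on both spinal cord arrays. Xbp1, for instance, read 5960 (WT) and 8241 (IP6K2-KO) in the spinal cord. Among the brightest were Cela3a, an elastase (164922 on WT and 185843 on IP6K2-KO, −2.07 and −0.20 after quantile normalization), and the granule protein Zg16 (126423 and 203232, −1.56, which turned to 0.22). Cckar, the receptor through which cholecystokinin acts on the pancreas, had the highest value of the list, 2.71 (2.57). None of the 12 duodenal partners of pancreatic digestion, such as enteropeptidase (Tmprss15), cholecystokinin (Cck) and secretin (Sct), reached 2-fold, and their median was 0.06 (0.30).

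Markers of other cell types also differed between the duodenum arrays. Of 10 islet genes, 9 had a difference and 1 was well above background on IP6K2-KO alone with a bound under 1-fold. Of these, 5 were at least 2-fold higher on IP6K2-KO and none lower, with a median of 1.17 (1.09 after quantile normalization). The insulin genes Ins1 and Ins2 read 736 and 856 on WT and 9385 and 10676 on IP6K2-KO, differences of 1.43 and 1.39 (1.48 and 1.46). Of 5 stomach markers, 3 were higher, with a median over the 4 with a difference of 3.54 (3.34). The marker without a difference, Gkn1, read 0.864 on WT and 9.15 on IP6K2-KO. In the spinal cord it read 6674 and 5982, so its probe was not particular to stomach tissue here. The stomach peptide Tff1 read 380 and 24914, a difference of 3.79 (3.50), and Gkn2 read 27.6 and 3238, a difference of 4.63 (4.38), while pepsinogen C (Pgc) read 164 and 622, a difference of −0.33 (−0.26). Of 8 pancreatic duct markers, 1 was 2-fold higher and the median of 6 was 0.06 (0.07). The 6 Paneth markers had a median of −1.52 (−0.60) with 4 at least 2-fold lower, and the 10 enterocyte markers a median of −0.18 (0.28). The part of pancreatic or stomach tissue in the duodenum samples was not tested, and with 1 array per group it cannot be told apart from the genotype.

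**Figure D4:**
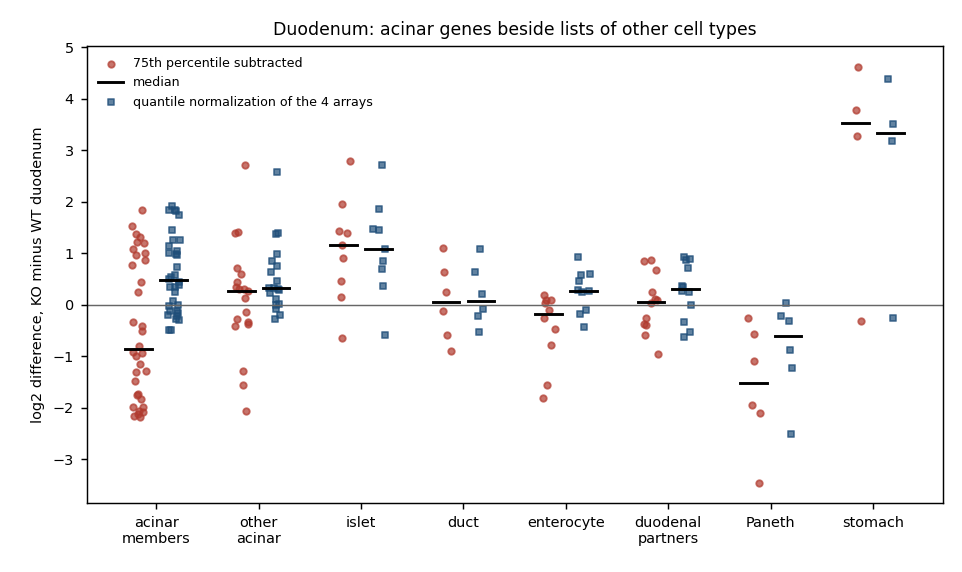
Log2 difference between the duodenum arrays, IP6K2-KO minus WT, for the 34 acinar members and for the genes of 7 other lists with a difference, after 75th percentile scaling (circles) and quantile normalization (squares); black bars are medians. The acinar median moves from −0.87 to 0.47 between scalings, while the islet median stays near 1 (1.17 and 1.09). The lists differ in brightness: the islet probes with a difference read at most 10676 (Ins2). The acinar members with a mean signal below 50000, in 3 ranges of brightness, had medians from 0.97 to 1.07 (1.00 to 1.25 after quantile normalization).

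In the spinal cord the acinar genes were dim, and the 17 that were well above background on both arrays were within 2-fold between the genotypes. A further 4 were well above background on 1 array and 13 on neither. Among the 21 with a value, lower bounds included, the median difference was −0.13, beside −0.04 for all genes. The members Try4 and Try5, were at least 2-fold higher on IP6K2-KO and none was lower, against 2.28% and 0.865% of all genes. Try4 read 2.15 on WT and 24.7 on IP6K2-KO, and Try5 read 1.19 and 27.5. Neither was well above background on WT, so their differences are lower bounds of 2.37 and 2.52 (1.88 and 2.04 after quantile normalization), with technical SDs of 0.34 and 0.40. They were 0.41 and 0.33 in an alternative chosen after the data were seen, normexp in which the median background stood in for local backgrounds that the scanner software had flagged. Prss1 and Prss2, which belong to the same family, were well above background on neither array, with signals of 4.12 and 3.56, and 0.899 and 0.873.

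The brightest members in the spinal cord did not reach 2-fold. Amy1 read 2493 on WT and 2246 on IP6K2-KO (−0.25), Amy2a5 389 and 341 (−0.29), Erp27 298 and 277 (−0.21) and Cela1 253 and 306 (0.17). Ctrb1 read 58.6 and 84.1 (0.42), Pdia2 30.6 and 44.7 (0.44), and Ctrl 57.4 and 60.1 (−0.03). Klk1 was well above background on IP6K2-KO alone, with 4.25 and 7.84 and a lower bound of 0.71, and Ptf1a on WT alone, with 5.82 and 3.01 and a bound of −0.54. The lowest value was that of Pla2g1b, −0.63. The other members well above background on both arrays ranged from −0.33 (Cel) to 0.16 (Rnase1). The 13 members well above background on neither array were Prss1, Prss2, Cela2a, Cela3b, Pnliprp1, Pnliprp2, Amy2a4, Reg1, Reg2, Cuzd1, Gp2, Serpini2 and Tmed6, with signals from 0.873 to 4.12. Cela3b, whose probe was the brightest in the duodenum, read 2.94 and 2.58 there. The signals of the duodenum and of the spinal cord on IP6K2-KO had a rank correlation of 0.25 over the 34 members.

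**Figure D5:**
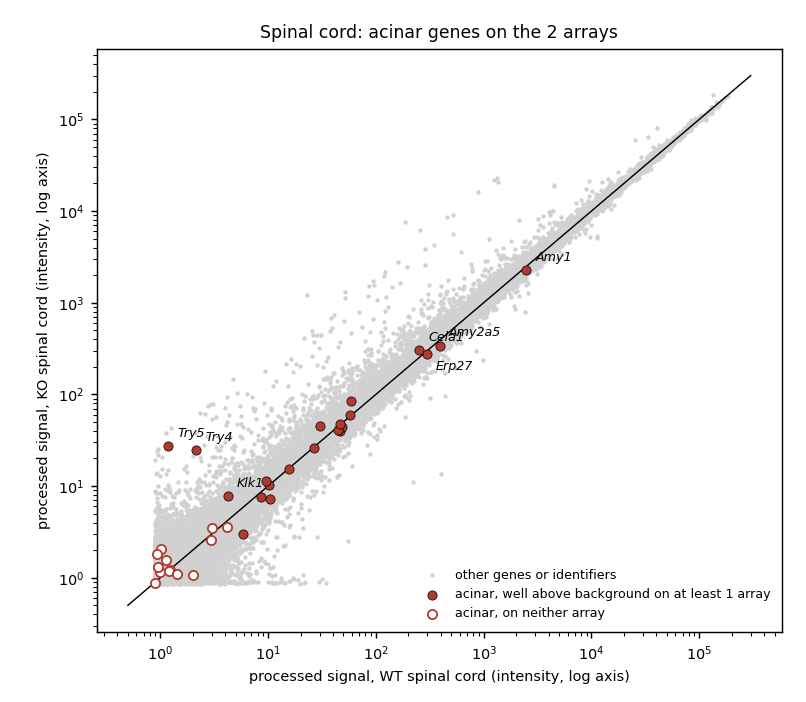
Processed signal on the IP6K2-KO against the WT spinal cord array (intensity, log axes) for genes and identifiers (grey) and the 34 acinar genes; filled red points were well above background on at least 1 array and open points on neither, and the line marks equal signal. Try4 and Try5 lie above the line at 24.7 and 27.5, and the other filled points lie near it.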

How the data were processed

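Cy3-labelled cRNA from spinal cord and duodenum was hybridized to 1-colour arrays, 1 per genotype and tissue. The authors deposited the output of Agilent Feature Extraction 11.5.1.1, in which the processed signal is a background-subtracted and detrended intensity. They also deposited log2 values, which lie close to quantile normalization of the 4 arrays (median difference 0.00105, at most 0.042 over member probes). Here, log2 of the signal minus the array's 75th percentile was used, and quantile normalization as the second scaling. Spots flagged as outliers were left out, spots of a probe were averaged, and a gene took its brightest probe (mean over 4 arrays). Of 26391 probes with an NM accession, 25868 matched RefSeq symbols. A gene entered a comparison where it was well above background on at least 1 array. Where only 1 was, the value is a lower bound against the lowest signal well above background, and none is given if that is under 1-fold. A difference counted at 2-fold. All members are named, and of other lists the 3 brightest genes plus those singled out after their values were seen, except an item that is not reported here. The members and lists were chosen with earlier results of these data known. Python 3.11.15, R 4.3.3 and limma 3.58.1 were used, and the script was checked on simulated data. Alternatives included normexp (offset 50), spiked-in controls, median centring and all probes of a gene.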

Additional observations from a re-analysis of the deposited data

Results flagged for a closer look

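Try4 and Try5 were lower on IP6K2-KO in the duodenum and higher on IP6K2-KO in the spinal cord under 75th percentile scaling. The duodenum difference minus the spinal cord difference was −4.44 for Try4 and −4.70 for Try5 on the log2 scale, with 1 array per group and with the spinal cord values as lower bounds. After quantile normalization of the 4 arrays it was −2.38 for Try4 and −2.27 for Try5. The WT spinal cord signals were 2.15 and 1.19, not well above background. Under normexp with flagged backgrounds replaced, the spinal cord differences were 0.41 and 0.33. In the duodenum, other genes with a mean signal of at least 50000 had a median difference of −1.39 under 75th percentile scaling. The difference between tissues was not tested.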

How the results depend on the processing

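The direction of the duodenum genotype difference of the bright members rested on the scaling. The number of members 2-fold higher on IP6K2-KO, 7 in the main setting, was 10 under quantile normalization of the 4 arrays, 13 under quantile normalization within each tissue, 29 on the spiked-in controls, 11 in the authors' table and 11 at 1.5-fold. The number lower, 15, was 0 under the first 3 of these alternatives and in the authors' table. Their median of −0.87 was 0.47, 0.55, 2.14 and 0.48 in that order of alternatives, −0.23 under normexp and −0.23 with flagged backgrounds replaced. The median of all genes well above background on both arrays, −0.11, was then 0.01, 0.01, 2.89, 0.02, −0.18 and −0.18. Spiked-in scaling adds 3.01 to every gene of this comparison, which fixes its counts and reversals, and the members' median stayed below that of all genes. Prss2, Cpb1, Amy2a5, Reg1 and Reg2 turned to 0.24, 0.069, 0.54, 0.33 and 0.34 under quantile normalization of the 4 arrays, to 0.30, 0.077, 0.67, 0.38 and 0.40 within each tissue and to 0.26, 0.087, 0.56, 0.39 and 0.38 in the authors' table. With that constant these became 1.53, 1.26, 2.0, 1.72 and 1.69, and Cela2a, Cela3b, Ctrb1, Cpa1, Try4, Try5, Clps, Amy1, Pla2g1b and Sycn became 1.27, 0.95, 0.84, 1.01, 0.93, 0.83, 0.88, 1.18, 1.85 and 1.02. In the spinal cord, normexp gave 0 members higher, 14 lower and a median of −1.80, which the array's flagged local backgrounds moved, since the replaced ones gave 0 higher and a median of −0.08. Requiring both arrays above background gave 0 higher, and 1 was lower with no filter and at 1.5-fold. The tissue medians of 14.41 (WT) and 13.56 (IP6K2-KO) were 12.69 and 13.15 under quantile normalization, 14.64 and 13.84 with median centring, 9.37 and 11.69 on spiked-in controls, 9.46 and 11.84 under normexp, 11.33 and 11.84 with flagged backgrounds replaced, 12.68 and 13.15 in the authors' table and 14.15 and 13.80 with all probes averaged. All 34 stayed higher in the duodenum, and 18 and 20 where both arrays had to be above background. Over the alternatives, 262 values stayed within the technical SD or 1.5 times a count, 620 moved further and 30 were reversed, of which 15 follow from the constant of the spiked-in scaling. The 30 cover only members that were at least 2-fold lower in the main setting. Members within 2-fold there that also changed sign, such as Cela1, Ctrl, Cel, Pnlip and Pdia2 under quantile normalization of the 4 arrays, are not among them. No paired analysis was possible because the labels give 1 sample per group. Signal over background limits the 13 members not measured in spinal cord.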
